A study of Mus musculus with 8 samples.

Results

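Probe sets of 9 genes for calcium-binding proteins were examined in splenic dendritic cells: S100a1, S100a4, S100a6, S100a10, S100a11 and S100a13 of the S100 family, and Anxa1, Anxa2 and Anxa5 of the annexin family. Members were chosen by gene symbol in the platform annotation of the array. Of 45101 probe sets, 14 carried the symbol of a member and no other symbol, and they covered 8 of the 9 genes. The only probe set that lists S100a11 lists other genes too, so no value was assigned to S100a11. The study sorted CD8α+ and CD8α- dendritic cells from the spleens of untreated female C57BL/6 mice, which carried either the wild type genome or the RAG2-/- genotype. RAG2 is needed to assemble antigen receptors, so mice without it have no mature T or B cells, and its loss is not limited to dendritic cells. The mice were 10 weeks old per the sample labels, and the design text gives 8 to 10 weeks. Each of the 4 groups (wild type CD8α-, wild type CD8α+, knockout CD8α- and knockout CD8α+) was read on 2 Affymetrix arrays, and the labels number these as replicates and do not name the animals; the spread behind the p-values may be technical.

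S100 proteins are small EF-hand proteins, most of which change shape when they bind calcium and then dock onto target proteins. Annexins bind acidic phospholipids of membranes in the presence of calcium, and take part in membrane traffic, repair and the handling of dying cells. The families meet in a complex of S100A10 with annexin A2, which ties membranes to the actin cytoskeleton. S100A4 and S100A6 are known in leukocytes for their links to motility and the cytoskeleton, and annexin A1 for dampening inflammation.

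Levels are log2 expression values per probe set. They are compared between arrays within a probe set only, since hybridization differs between probe sets. The targeted gene could not check the genotype, because Rag2 lay between 2.49 and 3.63 on the 8 arrays, below the log2 5 used here as a filter on low values. Cd8a lay at 5.80 to 7.70 on the 4 CD8α- arrays and at 11.73 to 12.51 on the 4 CD8α+ arrays. All 6 conventional dendritic cell markers were above log2 5 on every array, at 10.27 (Zbtb46) to 16.04 (H2-Aa). Among 10 neutrophil markers, 8 reached log2 5 on knockout CD8α- replicate 2 and 6 on knockout CD8α+ replicate 1, against 0 or 1 on each other array, so these arrays stand apart. The 4 knockout arrays share a lowest value of 2.23, held by 18217 to 18893 probe sets each, while each wild type array has a lowest value of 1.16 to 1.17 in 1 probe set. The genotypes were therefore evidently processed apart, and genotype and processing cannot be told apart in any comparison of knockout with wild type. In sorted populations, fewer cells of a type and less RNA per cell cannot be told apart either.

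The upstream sequences of the 4 members in the RefSeq table with calls in at least 3 of the 4 comparisons below are shown first, because S100a4 and S100a6 ran opposite to Anxa1 between the subsets. The S100 members lie on chromosome 3, with S100a4 and S100a6 on either side of S100a5, S100a10 beside S100a11, and S100a1 beside S100a13. Each line gives the 250 bases before the annotated start in RefSeq (build GRCm38.p6), 5′ to 3′ on the strand of the gene. Both strands were searched, and capitals mark matches of the TATA box (TATAAA), the AP-1 site (TGANTCA), the PU.1 core (GAGGAA), the RBP-J site (TGGGAA) and the SP1 site (GGGCGG).
S100a4, chr3:90603520-90603769, plus strand: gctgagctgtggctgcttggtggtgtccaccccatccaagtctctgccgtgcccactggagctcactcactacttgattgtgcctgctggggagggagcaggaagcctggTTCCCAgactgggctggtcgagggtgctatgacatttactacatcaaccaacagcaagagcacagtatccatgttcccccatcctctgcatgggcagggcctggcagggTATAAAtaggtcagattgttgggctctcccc
S100a6, chr3:90612644-90612893, plus strand: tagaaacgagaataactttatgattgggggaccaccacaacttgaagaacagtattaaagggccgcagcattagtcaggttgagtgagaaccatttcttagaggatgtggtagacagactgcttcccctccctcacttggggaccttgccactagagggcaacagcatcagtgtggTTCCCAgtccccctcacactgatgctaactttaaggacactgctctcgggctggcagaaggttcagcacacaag
Anxa2, chr9:69453433-69453682, plus strand: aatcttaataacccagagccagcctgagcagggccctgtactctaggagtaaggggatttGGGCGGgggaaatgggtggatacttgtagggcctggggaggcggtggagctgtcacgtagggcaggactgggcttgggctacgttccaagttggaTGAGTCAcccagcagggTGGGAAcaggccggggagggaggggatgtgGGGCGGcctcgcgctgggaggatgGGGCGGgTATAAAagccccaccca
Anxa1, chr19:20390672-20390921, minus strand: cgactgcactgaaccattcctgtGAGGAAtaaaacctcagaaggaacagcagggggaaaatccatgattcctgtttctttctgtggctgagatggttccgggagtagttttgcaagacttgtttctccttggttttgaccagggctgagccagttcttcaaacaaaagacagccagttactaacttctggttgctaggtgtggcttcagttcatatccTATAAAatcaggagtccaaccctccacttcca
Promoters of 8 of the 9 members matched the RefSeq table, and that of S100a10 did not. The RBP-J letters occur in S100a4, S100a6 and Anxa2, that is in 3 of the 8, and in 21.6% of all 32851 promoters. On S100a4 and S100a6 they lie on the strand opposite to the gene, and begin 140 and 74 bases before the start. The TATA box letters occur upstream of S100a4, Anxa2 and Anxa1, against 12.4% of all promoters, and end 26, 12 and 27 bases before the start. The AP-1 letters stand in Anxa2 and S100a11 (6.75% of all promoters), the PU.1 core letters in Anxa1 and S100a11 (23.3%), and the SP1 letters in Anxa2 and S100a11 (32.7%). The E-box letters CANNTG stand in 4 of the 8 (66.2% of all), and the interferon-stimulated response element in 0 of the 8 (2.98% of all). None of these motifs overlaps another in the sequences shown, and a match describes letters only.

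CD8α+ cells were compared with CD8α- cells within each genotype to ask how the subsets differ. In both genotypes the S100 transcripts S100a4, S100a6 and S100a10 were lower in CD8α+ cells, and Anxa1 was higher. Among 16939 tested probe sets, 12.7% were called in wild type (6.98% higher and 5.74% lower in CD8α+ cells), at a limma p adjusted by Benjamini-Hochberg under 0.05. Of the 9 member probe sets that passed the filter on low values, 1 was higher and 4 were lower. In the knockout, 16.2% of all tested probe sets were called (7.69% higher, 8.47% lower), and of the 9 member probe sets 1 was higher and 5 were lower. The median change of the 9 was -0.77 in wild type and -1.05 in the knockout, beside 0.02 and -0.01 over all tested probe sets. Leaving out both arrays with neutrophil transcripts leaves 1 array in each knockout group, and the spread then comes from the wild type groups alone. Calls kept or lost in that setting are therefore not read as an effect of these transcripts.

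**Figure D1:**
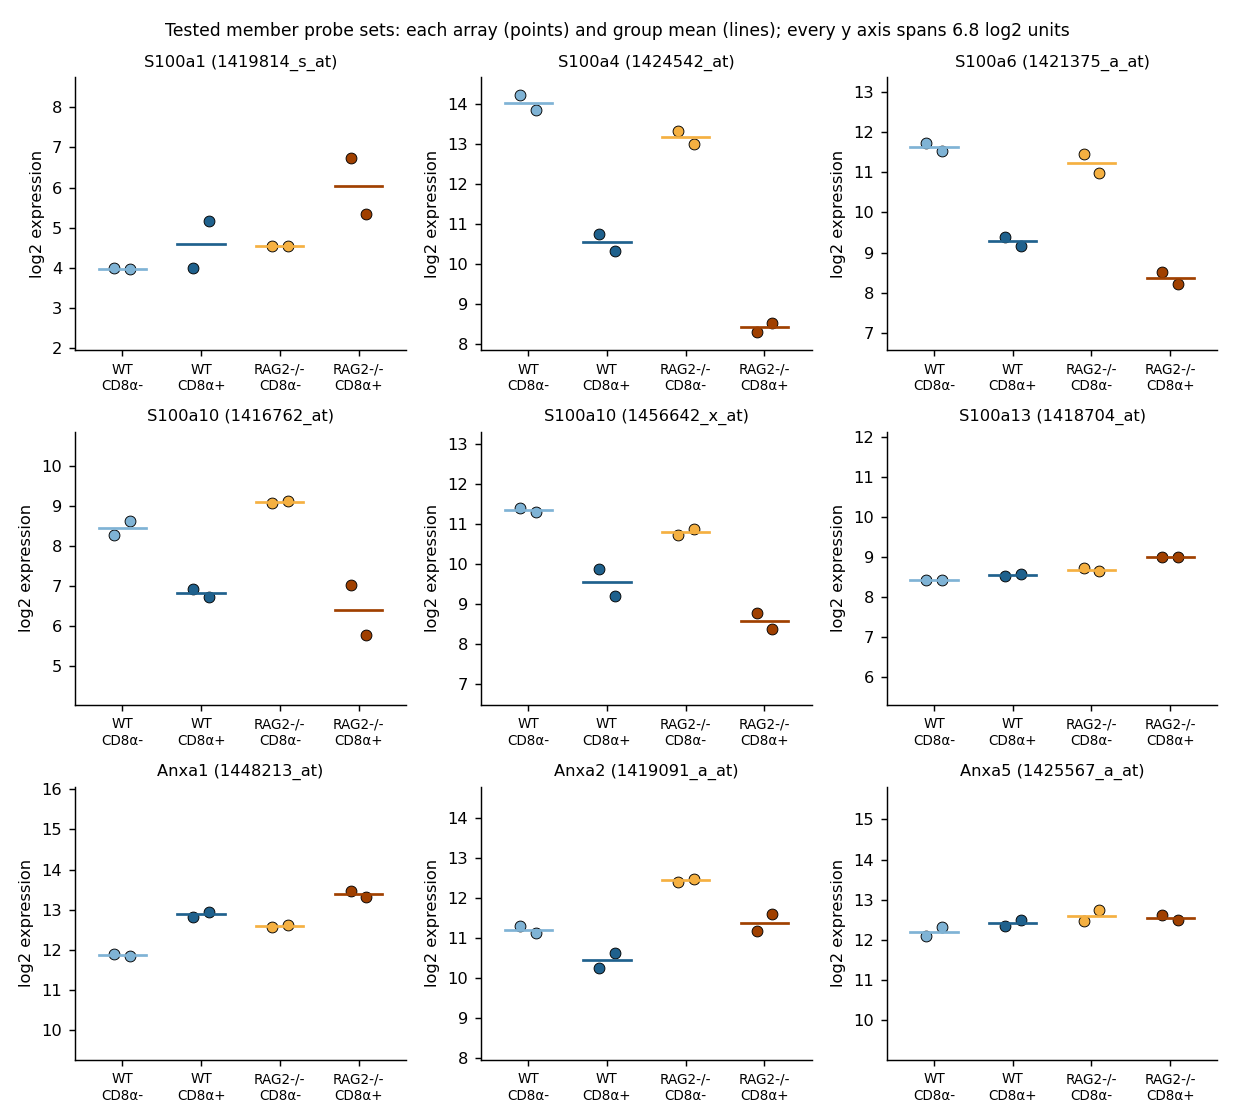
Log2 expression (vertical axis) of the 9 tested member probe sets on each of the 8 arrays, grouped by genotype and subset, with 1 point per array and a line at the group mean. S100a4, S100a6 and both S100a10 probe sets sit lower in CD8α+ than in CD8α- cells of either genotype, and Anxa1 sits higher.

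S100a4 (probe set 1424542_at), which encodes a binding partner of non-muscle myosin, had the largest difference among the members. It read 14.20 and 13.83 on wild type CD8α- arrays and 10.75 and 10.33 on wild type CD8α+ arrays. In the knockout it read 13.33 and 12.98 in CD8α- cells and 8.32 and 8.53 in CD8α+ cells. The arrays of the subsets did not overlap in either genotype, and each CD8α- array was more than 2 log2 units above each CD8α+ array. S100a4 fell by 3.48 (SE 0.25, n = 2 against 2, 11.1-fold, adjusted p = 0.000512 with limma) in wild type. In the knockout it fell by 4.73 (SE 0.25, 26.6-fold, adjusted p = 0.000193). By size of the fall it ranked at place 120 of 16939 in wild type and at place 66 in the knockout.

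S100a6 (1421375_a_at), which encodes calcyclin, showed the same order of groups with smaller differences. Its levels were 11.73 and 11.54 on wild type CD8α- arrays, 9.40 and 9.17 on wild type CD8α+ arrays, 11.46 and 10.98 on knockout CD8α- arrays, and 8.51 and 8.22 on knockout CD8α+ arrays. Every CD8α- array was above every CD8α+ array. S100a6 fell by 2.35 in wild type (SE 0.23, 5.10-fold, adjusted p = 0.00155 with limma) and by 2.85 in the knockout (SE 0.23, 7.23-fold, adjusted p = 0.000761). The calls for S100a4 and S100a6 between the subsets held in each of the 21 alternative analyses.

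S100a10, the S100 protein that stays in its active shape without calcium and pairs with annexin A2, has 3 probe sets, of which 2 passed the filter. Probe set 1456642_x_at read 11.39 and 11.29 on wild type CD8α- arrays and 9.89 and 9.21 on wild type CD8α+ arrays, and 10.72 and 10.86 against 8.79 and 8.39 in the knockout. Probe set 1416762_at read 8.28 and 8.61 against 6.91 and 6.71 in wild type, and 9.06 and 9.11 against 7.02 and 5.77 in the knockout. On either probe set the CD8α- arrays lay above the CD8α+ arrays of the same genotype. On 1456642_x_at S100a10 fell by 1.79 in wild type (SE 0.27, 3.46-fold, adjusted p = 0.00762 with limma) and by 2.21 in the knockout (SE 0.27, 4.61-fold, adjusted p = 0.00313). On 1416762_at it fell by 1.63 in wild type (SE 0.39, 3.10-fold, adjusted p = 0.0414) and by 2.69 in the knockout (SE 0.39, 6.43-fold, adjusted p = 0.00599). The wild type call of 1456642_x_at was lost without wild type CD8α- replicate 1 (-1.74, adjusted p = 0.0664) or replicate 2 (-1.84, adjusted p = 0.0539). The wild type call of 1416762_at was lost without any 1 of the 4 wild type arrays (-1.80 to -1.47, adjusted p from 0.133 to 0.209), or without either knockout CD8α- array (-1.63, adjusted p = 0.0679). Without the filter both wild type calls were lost (0.211 on 1416762_at and 0.0510 on 1456642_x_at), and so was the knockout call of 1416762_at (0.0549), which was also lost with the compared groups alone (0.0857).

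Anxa2 (1419091_a_at), which encodes the membrane-binding partner of S100A10, was lower in CD8α+ cells in the knockout. It read 11.29 and 11.12 on wild type CD8α- arrays and 10.26 and 10.63 on wild type CD8α+ arrays, and 12.41 and 12.48 against 11.17 and 11.60 in the knockout. The subsets did not overlap in either genotype. Anxa2 fell by 1.05 in the knockout (SE 0.22, 2.08-fold, adjusted p = 0.0239 with limma), while the wild type difference of -0.77 (SE 0.22, 95% interval -1.30 to -0.23, adjusted p = 0.0785) did not pass. It passed after quantile normalization (-0.83, 0.0440) and with limma-trend and robust eBayes (-0.77, 0.0421). The knockout call was lost without wild type CD8α- replicate 1 or 2 (-1.05, adjusted p = 0.0510), knockout CD8α- replicate 1 (-1.09, 0.0822) or 2 (-1.02, 0.0693), knockout CD8α+ replicate 1 (-0.84, 0.104), or both arrays with neutrophil transcripts (-0.81, 0.154). It was also lost with the compared groups alone (0.0963) and without the filter (0.0763).

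Anxa1 (1448213_at), whose protein is a ligand of formyl peptide receptors, ran the other way. It read 11.89 and 11.86 on wild type CD8α- arrays and 12.82 and 12.95 on wild type CD8α+ arrays, and 12.56 and 12.62 against 13.46 and 13.31 in the knockout. The CD8α+ arrays were above the CD8α- arrays in each genotype, with no overlap. Anxa1 rose by 1.01 in wild type (SE 0.17, 2.01-fold, adjusted p = 0.0106 with limma) and by 0.80 in the knockout (SE 0.17, 1.74-fold, adjusted p = 0.0221). The wild type call was lost without wild type CD8α- replicate 1 (1.03, adjusted p = 0.0656) or 2 (0.99, 0.0665), or CD8α+ replicate 2 (0.95, 0.0645). The knockout call was not kept without knockout CD8α- replicate 1 (0.77, 0.0812), CD8α+ replicate 1 (0.72, 0.0920) or 2 (0.88, 0.0534), or both arrays with neutrophil transcripts (0.75, 0.0996), nor with the compared groups alone (0.0864).

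Anxa5, S100a13 and S100a1 did not pass between the subsets. Anxa5 (1425567_a_at), whose protein binds phosphatidylserine on dying cells, read 12.08 and 12.33 on wild type CD8α- arrays, 12.34 and 12.49 on wild type CD8α+ arrays, 12.47 and 12.74 on knockout CD8α- arrays, and 12.62 and 12.48 on knockout CD8α+ arrays. Its arrays spanned less than 1 log2 unit, and the knockout subsets overlapped. The Anxa5 difference was 0.21 in wild type (95% interval -0.26 to 0.67) and -0.05 in the knockout (-0.51 to 0.41). S100a13 (1418704_at), whose protein takes part in the export of proteins that lack a signal peptide, read 8.42 on both wild type CD8α- arrays, 8.52 and 8.58 on wild type CD8α+ arrays, 8.74 and 8.65 on knockout CD8α- arrays, and 9.01 and 8.99 on knockout CD8α+ arrays. The S100a13 groups did not overlap, yet the differences were as small as 0.13 in wild type (95% interval -0.25 to 0.50) and 0.31 in the knockout (-0.07 to 0.69). S100a1 (1419814_s_at), best known from heart muscle, was the member nearest the filter: it reached log2 5 on 3 arrays, at 5.18 in wild type CD8α+ replicate 2 and at 6.72 and 5.35 on knockout CD8α+ arrays. It read 3.98 on both wild type CD8α- arrays, 3.99 on wild type CD8α+ replicate 1 and 4.55 on both knockout CD8α- arrays. S100a1 thus passed the filter only through CD8α+ arrays. Its differences between the subsets, 0.60 in wild type and 1.49 in the knockout, are therefore a description.

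**Figure D2:**
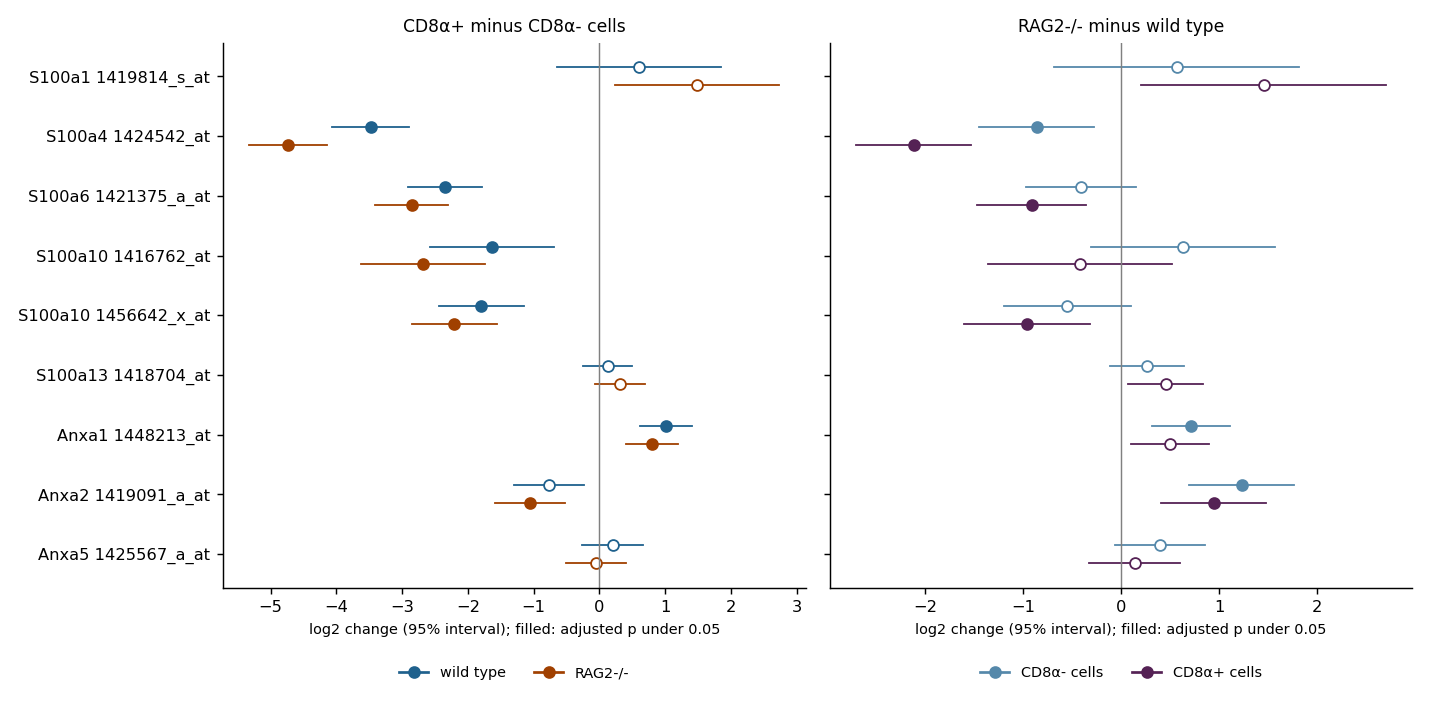
Log2 differences of the 9 tested member probe sets (points) with 95% intervals (bars) for CD8α+ less CD8α- cells in each genotype and for knockout less wild type in each subset. S100a4 lies farthest below 0 in the subset comparisons, at -3.48 and -4.73, and Anxa2 lies above 0 in both genotype comparisons.

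Several members had more than 1 probe set, and these did not always run together. Likeness was measured as the root mean square difference between profiles of the 8 arrays, each centred on its own mean. The tested S100a10 probe sets differed by 0.54 log2 units, and their levels disagreed on the order of the CD8α- groups: wild type was above the knockout on 1456642_x_at and below it on 1416762_at. The remaining 5 probe sets never reached log2 5. The third S100a10 probe set, 1439348_at, was the closest to the filter at 4.16 in knockout CD8α- replicate 1, and it differed from the tested ones by 0.95 and 0.83. Anxa2 has 1437692_x_at, at 3.97 to 4.02 in wild type and 3.30 in the knockout, and 1437691_at, at 2.77 to 2.84 and 2.23. These dim Anxa2 probe sets differed from each other by 0.06 and from the bright one by 1.01 and 0.97. Each held 1 constant value over the 4 knockout arrays and stayed below log2 5, so nothing is read from their order of genotypes. The dim Anxa1 probe set, 1444016_at, read 2.77 to 2.83 in wild type and 2.23 to 2.59 in the knockout, and differed from the bright one by 0.75. S100a1 probe set 1417421_at read 1.62 to 1.63 in wild type and 2.23 in the knockout, where 2.23 is the lowest value those arrays hold.

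**Figure D3:**
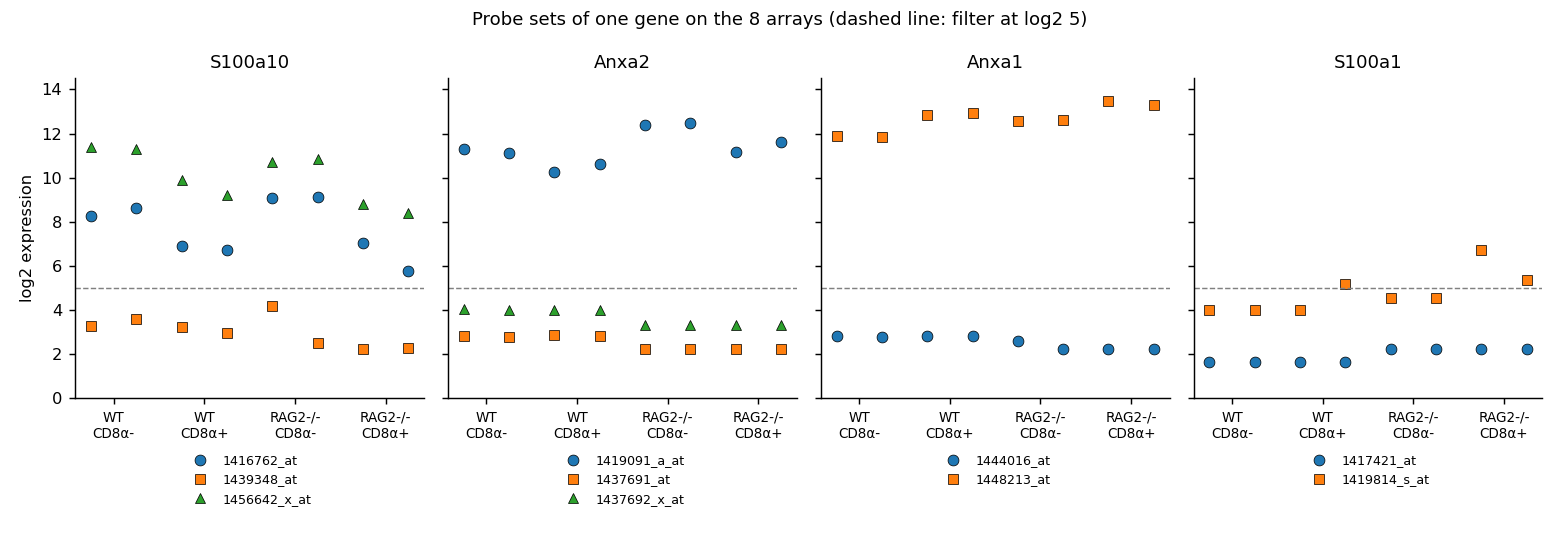
Log2 expression (vertical axis) of each probe set of S100a1, S100a10, Anxa1 and Anxa2 on each of the 8 arrays, drawn as separate markers. With each profile centred on its own mean, the tested S100a10 probe sets differ by a root mean square of 0.54. The dim Anxa2 probe sets are constant over the 4 knockout arrays.

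Knockout cells were compared with wild type cells in each subset to ask how dendritic cells differ when mature T and B cells are missing. Anxa2 was higher in both knockout subsets and S100a4 was lower in both. In CD8α- cells 35.7% of all tested probe sets were called (19.1% higher, 16.6% lower), and of the 9 member probe sets 2 were higher (Anxa1, Anxa2) and 1 was lower (S100a4), which is a share near the background. In CD8α+ cells 33.9% were called (16.7% higher, 17.3% lower), and of the members 1 was higher (Anxa2) and 3 were lower (S100a4, S100a6 and 1 probe set of S100a10). The median member change was 0.40 in CD8α- and 0.14 in CD8α+ cells, beside 0.09 and -0.02 over all tested probe sets. Without both arrays with neutrophil transcripts, which leaves 1 array per knockout group, Anxa1 stood at 0.68 and S100a4 at -0.69 in CD8α- cells. In CD8α+ cells S100a10 stood at -1.05 on 1416762_at and at -1.16 on 1456642_x_at in that setting. Where each array was instead centred on its median, the median of all tested probe sets moved to 0.74 and 0.66, and the higher share of calls went from 53.4% to 87.9% in CD8α- cells and from 49.2% to 87.2% in CD8α+ cells. Anxa2 then stood at 1.89 and 1.62, and S100a4 at -0.20 and -1.44.

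Anxa2 rose by 1.23 in knockout CD8α- cells (SE 0.22, 2.35-fold, adjusted p = 0.00831 with limma) and by 0.95 on knockout CD8α+ arrays (SE 0.22, 1.93-fold, adjusted p = 0.0207). Its knockout arrays were above the wild type arrays within each subset, while knockout CD8α+ and wild type CD8α- arrays overlapped. The CD8α- call was lost without wild type CD8α- replicate 2 (1.15, adjusted p = 0.0523), and the CD8α+ call without wild type CD8α+ replicate 1 (0.76, 0.105) or knockout CD8α+ replicate 2 (0.73, 0.0837), or with the compared groups alone (0.0651). Anxa1 rose by 0.71 in knockout CD8α- cells (SE 0.17, 1.64-fold, adjusted p = 0.0185), and stood 0.50 higher in CD8α+ cells (95% interval 0.10 to 0.90, adjusted p = 0.0574) without passing. That difference passed in 6 alternatives: median centring (1.18, 0.00244), no filter (0.00281), an offset of 16 (0.0427), 1 probe set per gene (0.0479), limma-trend (0.0203) and a floor at log2 5 (0.0374). No arrays of neighbouring Anxa1 groups overlapped, in the order knockout CD8α+, wild type CD8α+, knockout CD8α-, wild type CD8α-. The CD8α- call of Anxa1 was lost without wild type CD8α- replicate 1 (0.73, 0.0750) or 2 (0.70, 0.0782), without knockout CD8α- replicate 2 (0.68, 0.0577), without both arrays with neutrophil transcripts (0.68, 0.0553), and after quantile normalization (0.50, 0.0843).

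S100a4 fell by 2.12 in knockout CD8α+ cells (SE 0.25, 4.34-fold, adjusted p = 0.00225 with limma), a call that held in each of the 21 alternatives. In knockout CD8α- cells it fell by 0.86 (SE 0.25, 1.82-fold, adjusted p = 0.0354). That call was lost under median centring (-0.20, 0.499) and without wild type CD8α- replicate 1 (-0.67, 0.173) or 2 (-1.05, 0.0662), knockout CD8α- replicate 1 (-1.03, 0.0509) or 2 (-0.69, 0.133), or both arrays with neutrophil transcripts (-0.69, 0.149), and with the compared groups alone (0.0685). S100a4 arrays of neighbouring groups did not overlap, in the order wild type CD8α-, knockout CD8α-, wild type CD8α+, knockout CD8α+, and S100a6 and S100a10 probe set 1456642_x_at followed the same order.

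S100a6 fell by 0.91 in knockout CD8α+ cells (SE 0.23, 1.88-fold, adjusted p = 0.0264 with limma) and differed by -0.41 in CD8α- cells (95% interval -0.97 to 0.15). Its CD8α+ call was lost under median centring (-0.24, 0.414) and without any 1 of wild type CD8α+ replicates 1 (-0.80, 0.125) and 2 (-1.03, 0.0643) or knockout CD8α+ replicates 1 (-1.06, 0.0545) and 2 (-0.77, 0.106). S100a10 on 1456642_x_at fell by 0.96 in knockout CD8α+ cells (SE 0.27, 1.95-fold, adjusted p = 0.0356). This call was lost under median centring (-0.29, 0.413), without either wild type CD8α- array (-0.96, 0.0658), without wild type CD8α+ replicate 1 (-0.62, 0.149), without knockout CD8α+ replicate 1 (-1.16, 0.0591) or 2 (-0.76, 0.143), without both arrays with neutrophil transcripts (-1.16, 0.0775), and with the compared groups alone (0.10). On 1416762_at the S100a10 difference in CD8α+ cells was -0.42 (95% interval -1.36 to 0.52). It was -1.05 without knockout CD8α+ replicate 1 (adjusted p = 0.0387) and 0.21 without replicate 2 (adjusted p = 0.550). In CD8α- cells the S100a10 probe sets pointed in opposite directions, 0.63 on 1416762_at and -0.55 on 1456642_x_at, neither of which passed (adjusted p = 0.247 and 0.159).

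The other members did not pass between the genotypes. The differences in CD8α- and CD8α+ cells were 0.40 and 0.14 for Anxa5, 0.27 and 0.45 for S100a13, and 0.57 and 1.46 for S100a1. The S100a13 difference in CD8α+ cells (95% interval 0.08 to 0.83, adjusted p = 0.0664 with limma) passed with a floor at log2 5 (0.0395). Without the filter S100a13 passed in both subsets (0.00263 and 0.000376), where 28294 and 28132 of all probe sets were called. S100a1 passed the filter only through CD8α+ arrays, so its differences are a description. Under median centring, where 8884 and 8361 of all 16939 probe sets were called, Anxa5 (1.05 and 0.81) and S100a13 (0.93 and 1.13) passed in both subsets. S100a10 on 1416762_at passed in CD8α- cells (1.29) and Anxa1 in CD8α+ cells (1.18). The S100a1 difference in CD8α+ cells was then 2.13, again a description.

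Markers of other cell types moved with genotype as well. The summed level of 10 splenic macrophage markers was 12.2 to 12.9 on the wild type arrays and 13.3 to 14.6 on the knockout arrays, with 5 to 6 and 9 to 10 of them at log2 5 or more. The 7 monocyte markers summed to 11.5 to 12.7 in wild type and 13.4 to 15.3 in the knockout, and Cd14 among them read 2.17 to 2.53 in wild type and 8.38 to 10.4 in the knockout. The 6 B cell markers summed to 10.9 to 11.9 in wild type and 8.00 to 8.65 in the knockout. The 5 NK cell markers summed to 7.62 to 7.91 in wild type and 9.28 to 11.7 in the knockout, where Gzma was the highest of them on each array (8.50 to 11.53). Between the subsets, 2 of 9 tested macrophage markers were lower in CD8α+ cells and 0 higher with limma in wild type (Adgre1 and C1qb, list median -0.24), and 2 and 0 in the knockout (Adgre1 and C1qc, list median -0.73), where 3 of the 9 had an unadjusted p under 0.05 in each genotype. Vcam1 (1.11), Hmox1 (0.87) and Spic (0.34) stood higher in wild type CD8α+ cells without passing. Markers of the subsets differed by genotype too. Of 5 tested CD8α- dendritic cell markers, 2 were lower and 1 was higher in knockout CD8α+ cells with limma, beside 33.9% of all called. Group means there went from 7.36 to 3.91 for Dtx1 and from 7.51 to 5.04 for Irf4. Sirpa (6.66 to 7.73) and Cd4 (2.77 to 4.11) ran the other way. Of 7 tested CD8α+ markers, 4 were higher and 0 lower in knockout CD8α- cells, beside 35.7% called. The part of these cell types and subsets in the member differences was not tested.

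The interaction is the difference between knockout and wild type in CD8α+ cells minus the same difference in CD8α- cells. It asks whether the genotypes differed unequally in the subsets, and a constant offset between the genotypes cancels in it. With limma, 0.0295% of all tested probe sets (5 of 16939) were called, and 0 of the 9 member probe sets. At an unadjusted p under 0.05 the members had 1, S100a4, with a difference of -1.26 (SE 0.35, 95% interval -2.09 to -0.43, adjusted p = 0.536). The intervals of the remaining members all included 0, from S100a10 on 1416762_at (-1.05, -2.38 to 0.28) to S100a1 (0.89, -0.88 to 2.65).

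Other genes of the families gave a mixed picture. Of 10 other S100 genes, 8 were named on the array and 6 of those stayed below the filter, with a highest value of 3.30 for S100a14. The remaining pair, S100a8 and S100a9, encodes calprotectin, an abundant protein of neutrophils. S100a8 read 3.35 to 4.31 in wild type, 4.43 and 10.69 on knockout CD8α- arrays, and 9.81 and 5.19 on knockout CD8α+ arrays. S100a9 read 4.07 to 5.01 in wild type, 3.59 and 10.71 on knockout CD8α- arrays, and 9.27 and 4.18 on knockout CD8α+ arrays. Both were high on the same 2 arrays, and neither passed in any comparison (unadjusted p of at least 0.123 with limma). On those arrays the summed level of the 8 other neutrophil markers was 12.4 and 10.7, against 5.55 to 6.73 on the remaining arrays. On the knockout arrays without and with these transcripts S100a4 read 13.33 and 12.98 in CD8α- cells and 8.53 and 8.32 in CD8α+ cells. S100a10 on 1416762_at read 9.06 and 9.11 in CD8α- cells and 5.77 and 7.02 in CD8α+ cells.

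**Figure D4:**
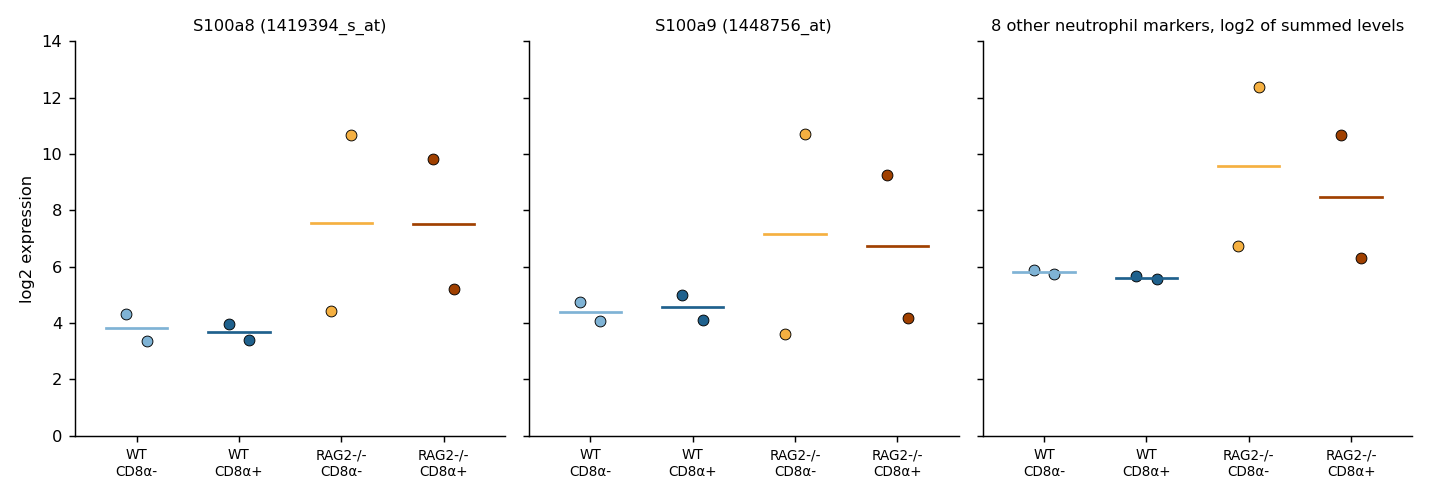
Log2 values of S100a8, of S100a9 and of the summed 8 other neutrophil markers on each of the 8 arrays (points, grouped by genotype and subset). Knockout CD8α- replicate 2 and knockout CD8α+ replicate 1 are high in all 3 panels, at 10.69 and 9.81 for S100a8.

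Among the other annexins, 8 of 9 were named and 4 tested. Anxa7 read 8.48 and 8.23 on wild type CD8α- arrays and 9.73 and 10.08 on CD8α+ arrays, and 8.50 and 8.03 against 9.53 and 10.07 in the knockout. The subsets did not overlap in either genotype. It rose by 1.54 in CD8α+ cells of wild type (SE 0.28, adjusted p = 0.0147 with limma) and by 1.54 in the knockout (SE 0.28, 0.0134). The wild type call was lost without wild type CD8α- replicate 1 (1.67, 0.0729) or 2 (1.42, 0.102) or CD8α+ replicate 2 (1.37, 0.101). In the knockout the call ended without CD8α+ replicate 2 (1.27) or both arrays with neutrophil transcripts (1.57), among other alternatives. Both Anxa7 calls held in 17 of the 21 alternatives, with adjusted p up to 0.0948 with limma in the knockout. Of the 4, 1 was higher and 0 were lower in each subset comparison, beside 12.7% and 16.2% of all tested probe sets called in wild type and knockout. Between genotypes 1 was higher and 1 lower in each subset, beside 35.7% and 33.9% called in CD8α- and CD8α+ cells.

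Anxa4 read 9.63 to 10.48 on the wild type arrays and 11.05 to 11.30 on the knockout arrays. It rose by 1.20 in knockout CD8α- cells (adjusted p = 0.0149 with limma) and by 1.09 in CD8α+ cells (0.0215). The CD8α- call was not kept without knockout CD8α- replicate 1 (1.18, 0.0548) or 2 (1.23, 0.0502) or wild type CD8α- replicate 2 (0.96, 0.0827), and the CD8α+ call without knockout CD8α+ replicate 1 (1.12, 0.0740) or 2 (1.07, 0.0783) or wild type CD8α+ replicate 1 (0.80, 0.102). Without both arrays with neutrophil transcripts neither Anxa4 call held (1.23, 0.0782, and 1.12, 0.0975). Anxa3 read 11.16 to 11.77 in wild type and 9.63 to 10.47 in the knockout, again without overlap. It fell by 1.56 in CD8α- cells (0.0119), and in CD8α+ cells it fell by 1.31 (0.0222). The CD8α+ call was lost under median centring (-0.64, 0.134), without knockout CD8α+ replicate 2 (-0.996, 0.0956) and without wild type CD8α+ replicate 2 (-1.005, 0.106). The CD8α- call was not kept without knockout CD8α- replicate 2 (-1.31, 0.0537) or wild type CD8α- replicate 1 (-1.57, 0.0674) or 2 (-1.56, 0.0631). Of the 21 alternatives, the CD8α+ call of Anxa4 held in 16 and that of Anxa3 in 17. Anxa6 passed in no comparison, with 9.82 and 11.58 on wild type CD8α+ arrays.

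**Figure D5:**
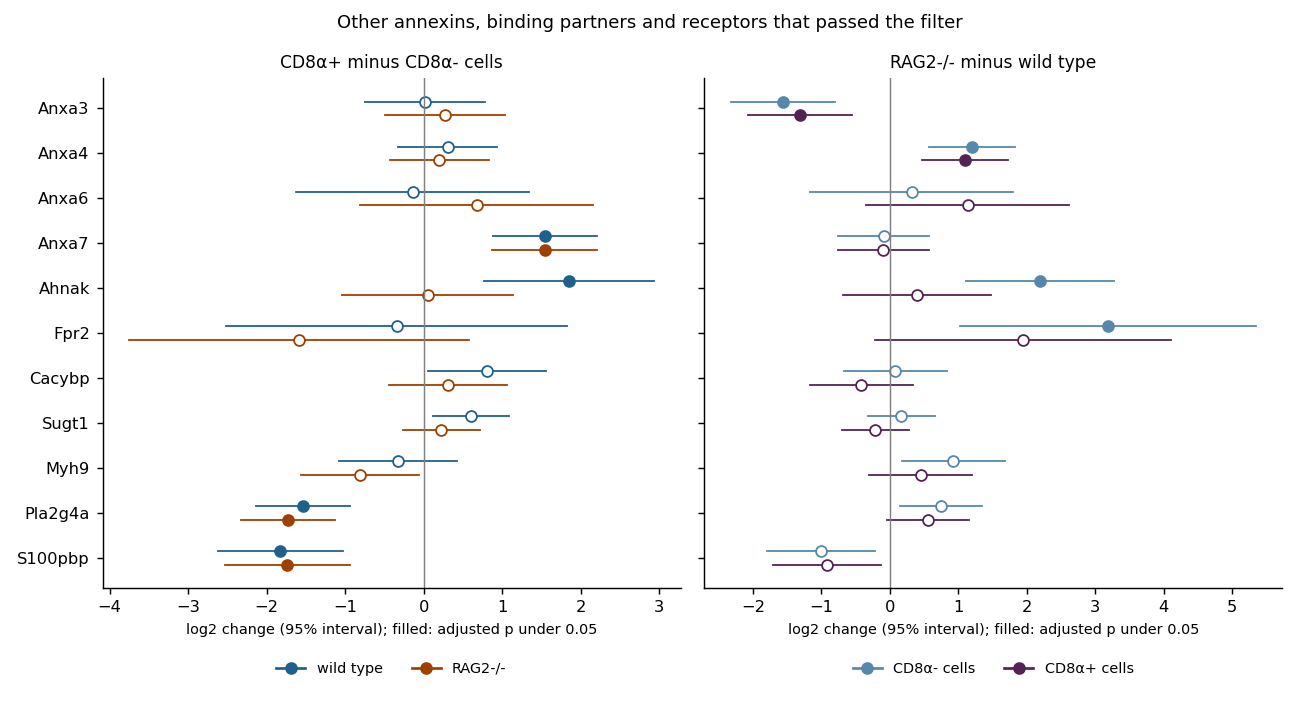
Log2 differences (points) with 95% intervals (bars) of the tested other annexins, binding partners and receptors in the subset and genotype comparisons. Anxa7 lies at 1.54 in both subset comparisons, and the intervals of Fpr2 are the widest.

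Of 17 binding partners and receptors of the families, 15 were named and 7 tested. In wild type CD8α+ cells 1 was higher and 2 were lower, beside 12.7% of all tested probe sets called. In knockout CD8α+ cells 0 were higher and 2 were lower, beside 16.2% called. Pla2g4a, the cytosolic phospholipase A2 that annexin A1 can inhibit, read 8.79 and 8.76 on wild type CD8α- arrays and 7.55 and 6.93 in CD8α+ cells. In the knockout it read 9.54 and 9.51 against 7.99 and 7.61. The subsets did not overlap. Pla2g4a fell by 1.53 in wild type (adjusted p = 0.0105 with limma) and by 1.73 in the knockout (0.00591). The wild type call was lost without wild type CD8α- replicate 1 (-1.52, 0.0761) or 2 (-1.55, 0.0696) or CD8α+ replicate 2 (-1.23, 0.0526), and the knockout call without both arrays with neutrophil transcripts (-1.93, 0.0531). S100pbp, named for binding an S100 protein, fell by 1.82 in wild type (0.0153) and by 1.74 in the knockout (0.0166). The S100pbp wild type call was lost without any 1 wild type array (-1.96 to -1.69), and held in 16 of the 21 alternatives. Its knockout call was lost without knockout CD8α- replicate 1 (-1.62), and held in 18 of the 21, with adjusted p up to 0.122 with limma. The wild type call of Pla2g4a held in 17 of the 21.

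Ahnak, a giant scaffold protein that binds the S100A10 and annexin A2 complex, was the partner that rose in wild type CD8α+ cells. It read 8.04 and 9.04 on wild type CD8α- arrays and 10.25 to 11.23 on the CD8α- arrays of the knockout, with 10.42 and 10.37 on wild type CD8α+ arrays and 10.46 and 11.12 on knockout CD8α+ arrays. Wild type CD8α- cells were thus lowest. The change was 1.85 between the wild type subsets (adjusted p = 0.0436 with limma) and 2.20 between genotypes in CD8α- cells (0.0123). Of the 21 alternatives, the subset call held in 10 (adjusted p up to 0.229 with limma) and the genotype call in 17. The subset call was lost without any 1 wild type array (1.35 to 2.35) or either knockout CD8α+ array (1.85), among others. The genotype call was lost without wild type CD8α- replicate 1 (1.70, 0.0742) or knockout CD8α- replicate 2 (1.71, 0.0519). Without both arrays with neutrophil transcripts neither passed (1.85, 0.0593, and 1.71, 0.0633). Fpr2, a receptor for annexin A1, was below log2 5 on each wild type array (2.41 to 3.11) and read 5.06 and 6.84 on knockout CD8α- arrays. It read 5.68 and 3.04 on knockout CD8α+ arrays, so it passed the filter only through the knockout, and its fitted difference of 3.19 in CD8α- cells is a description. In all, 2 of 7 partners (Ahnak and Fpr2) were called higher and 0 lower in knockout CD8α- cells, beside 35.7% called among all tested probe sets. Fpr2 is in this count only as such a description, since knockout arrays alone brought it past the filter. In knockout CD8α+ cells 0 of 7 passed with limma and 1 had an unadjusted p under 0.05, beside 33.9% called among all.

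Probe sets of other genes were ranked by the root mean square difference of their centred profile from that of each member over the 8 arrays, among 14603 searched. Closest to S100a4 were Ube2e2 (0.19), Slc2a3 (0.25) and Tlr1 (0.28). Closest to S100a6 were Ctsc (0.13), Tctex1d2 (0.17) and Sesn1 (0.21), and closest to S100a10 were Sting1 (0.16), Smad7 (0.22) and Sesn1 (0.23), on different Sesn1 probe sets. For Anxa1 these were Psma5 (0.11), Oaz2 (0.12) and Vdac2 (0.12), and for Anxa2 Mtmr3 (0.16), Zfyve27 (0.16) and Pea15a (0.16). For Anxa5 they were Csnk2a2 (0.06), Cab39 (0.07) and Snx9 (0.07), for S100a13 3830406C13Rik (0.07), Tmem198b (0.07) and Alkbh3 (0.08), and for S100a1 Atp10a (0.20), Renbp (0.23) and Aspscr1 (0.30). The likeness describes these 8 arrays only, and it is smaller in number for members that varied little.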

How the data were processed

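Biotin-labelled total RNA of sorted splenic dendritic cells was hybridized to Affymetrix mouse arrays, per the labels. The authors deposited 1 log2 value per probe set and array. GCRMA is named for all arrays in the submitters' processing notes, and affy for those of wild type only. Versions, and which arrays were normalized in common, are not stated there. Precision is limited by the count of arrays.

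No value was renormalized. The 64 array controls were left out, and the 16939 probe sets with log2 5 or more on at least 2 of 8 arrays were tested. Group means were estimated with limma 3.58.1 (lmFit, eBayes, 4 residual degrees of freedom) under R 4.3.3, with 2-sided p-values and Benjamini-Hochberg adjustment over every tested probe set. By the platform annotation, 34958 probe sets carry 1 symbol, 932 several and 9147 none. Upstream sequences came from RefSeq. Summed marker levels are log2 of summed linear values. The fit was tested on simulated data. Figures used matplotlib 3.10.9 in Python 3.11.15. Named genes were the members, genes of the lists (other S100 genes, other annexins, binding partners and receptors, other calcium sensors, markers of dendritic and other cell types), and the 3 closest profiles per member. Members and lists were chosen with earlier results of these data known. Deviations of same-numbered replicates correlated at r from -0.26 to 0.15 between groups. Same-numbered arrays gave no sign of pairing, so no block was used. The -0.26 was between the knockout subsets, where the arrays with neutrophil transcripts are replicate 2 in CD8α- and replicate 1 in CD8α+ cells. Pairing across numbers was looked at only through a block with exchanged numbers, and whether arrays share animals is not known. T cell markers summed to 5.36 to 6.98 over all arrays, and erythroid and platelet markers to 5.45 to 6.88. Of 7 tested CD8α+ dendritic cell markers 6 were higher in CD8α+ cells of each genotype, and of 5 tested CD8α- markers all 5 were lower.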

Additional observations from a re-analysis of the deposited data

How the results depend on the processing

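Of 18 member changes called with limma, 0 reversed in the alternatives run (21, or 20 for S100a10 1416762_at, which is left out with 1 probe set per gene), and 6 kept their call in all 21: S100a4 between subsets in both genotypes and between genotypes in CD8α+ cells, S100a6 between subsets in both genotypes, and S100a10 (1456642_x_at) between the knockout subsets. Changes that were not called reversed in 9 cases, and in 0 of these did the reversed value pass. They are Anxa5 between knockout subsets (-0.18 to 0.0855 over single arrays left out, 0.0151 without both arrays with neutrophil transcripts, 0.0001 centred on the median of tested probe sets) and between genotypes in CD8α+ cells (-0.0096 after quantile normalization), S100a6 (0.25) and S100a10 1456642_x_at (0.11) in CD8α- cells under median centring, and S100a10 1416762_at in CD8α+ cells (0.26 under median centring, -1.05 to 0.21 over single arrays left out). The cause was not tested.

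Without the filter, the probe sets called numbered 1199 and 1487 between the wild type and knockout subsets, 28294 and 28132 between genotypes in CD8α- and CD8α+ cells, and 41 for the interaction, against 2154, 2737, 6045, 5749 and 5, and 3 member probe sets between the wild type subsets against 5. With the compared groups alone, 720 were called between the knockout subsets, with 3 member probe sets there and 2 between genotypes in CD8α+ cells (not run for the interaction, which uses every group). With 1 probe set per gene, fewer were tested and 3544 and 3226 were called between genotypes, and 21 for the interaction. Median centring gave 5 of 9 member calls between genotypes in CD8α- cells, beside 8884 of 16939 over all. The interaction count was 12 after quantile normalization, 13 with an offset of 16, 21 with a floor at log2 5, 9 centred on the median of tested probe sets, and 10 without both arrays with neutrophil transcripts. That last setting gave 1676 calls between knockout subsets and 1 member call between genotypes in CD8α- cells. With the replicate block, and with its numbers exchanged in knockout CD8α+ cells, the interaction had 1 call. The block ended the call of S100a10 1416762_at between wild type subsets (-1.63, adjusted p = 0.0576 with limma) and the exchanged block that of 1456642_x_at between genotypes in CD8α+ cells (-0.96, 0.0505).

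With single arrays left out, which takes the spread of a lone array from the remaining groups, calls numbered 861 to 2139 between wild type subsets, 1494 to 2679 between knockout subsets, 2564 to 5867 and 2649 to 6046 between genotypes, and 0 to 4 for the interaction. Member calls then numbered 2 to 5, 4 to 6, 0 to 3 and 1 to 4. The centring on tested probe sets, the exchanged block and the leaving out of both arrays were chosen after seeing the data. Signal near the lowest values limits S100a1 and the 5 untested probe sets.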

Other observations

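Other cytosolic calcium sensors, most of them EF-hand proteins like the S100 family, were measured beside the members. Of 13 listed, 9 were named on the array and 8 tested. With limma, 4 were higher and 2 lower in each knockout subset, against 35.7% and 33.9% of all tested probe sets called there, while 1 passed between the wild type subsets and 0 between the knockout subsets (0 there at an unadjusted p under 0.05). Capns1, the small calpain subunit, was 2.66 higher in knockout CD8α- cells (adjusted p = 0.00714) and 3.11 higher in CD8α+ cells (0.00456). Efhd2, an actin-binding EF-hand protein, was 1.61 (0.00199) and 1.67 (0.00196) higher. Cib1, an integrin-binding protein, was 1.03 (0.00984) and 1.13 (0.00770) higher, and Pdcd6, an adaptor of membrane repair, 0.86 (0.00938) and 0.70 (0.0196) higher. Gca, which encodes grancalcin, fell by 2.08 (0.00505) and by 2.13 (0.00485), and Lcp1, the leukocyte actin bundler L-plastin, fell by 1.04 (0.00569) and by 1.25 (0.00348).

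The calls of Efhd2 and Gca held in each of the 21 alternatives in both subsets, as did those of Capns1, Cib1 and Lcp1 in CD8α+ cells. In CD8α- cells, leaving out wild type CD8α- replicate 2 ended the calls of Capns1 (2.45, adjusted p = 0.0504), Cib1 (0.86, 0.0564) and Pdcd6 (0.80, 0.0522) with limma, and median centring ended that of Lcp1 (-0.38, 0.117). The Pdcd6 call in CD8α+ cells was lost without any 1 of the 4 CD8α+ arrays (0.64 to 0.75, 0.0574 to 0.0728). Without both arrays with neutrophil transcripts, the calls of Capns1 in CD8α- cells (2.16, 0.0547) and Pdcd6 in CD8α+ cells (0.68, 0.0627) ended. Capn2, a calpain large subunit, was 1.04 higher in wild type CD8α+ cells (0.0199), a call lost without any 1 wild type array (0.92 to 1.17, 0.0672 to 0.122). Of the 21 alternatives, the Pdcd6 call in CD8α+ cells held in 15 and the Capn2 call in 16. Genotype and processing cannot be told apart in the differences between genotypes.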
